A study of Mus musculus with 11 samples.

Results

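The genes described here encode the enzymes, receptors and transfer proteins that reshape lipoproteins in and around the liver: the lipases *Lipc* and *Lpl*, the lipase inhibitor *Angptl4*, the receptors *Scarb1*, *Vldlr* and *Lrp1*, the esterifying enzyme *Lcat* and the transfer proteins *Pltp* and *Mttp*. They were chosen by name and make up 9 of the 46603 genes in the count table, and all 9 passed the filter on low counts. In livers of mice given INT-767, *Lipc* and *Scarb1* were higher than with vehicle and *Vldlr* was lower, while the other 6 genes did not pass the test. Over 7 vehicle and 4 treated mice, *Lipc* rose 2.98-fold (95% interval of the log2 value 1.03 to 2.13) and *Scarb1* 1.78-fold (0.48 to 1.19), and *Vldlr* fell to 0.471 of its vehicle level (-1.64 to -0.53).

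The samples were whole livers of 11 male leptin-deficient *ob/ob* mice of the strain B6.V-Lep ob/JRj, aged 5 to 6 weeks when they started the AMLN diet, which is high in fat, cholesterol and fructose. They ate it for 15 weeks and throughout treatment, so that obesity and diet were shared by both groups, and each had had a liver biopsy at baseline. For 8 weeks 4 mice were gavaged each day with 10 mg/kg of INT-767, a synthetic bile acid derivative and agonist of the nuclear receptor FXR and the membrane receptor TGR5, and 7 mice with the carboxymethyl cellulose vehicle alone. There was no group on normal chow, no lean group and no second dose, which limits the comparison to 1 agent in 1 model of metabolic dysfunction-associated steatohepatitis. The mRNA of each terminal liver sample was sequenced, giving between 7966963 and 15295230 counts per mouse with vehicle and between 7381211 and 16022459 with INT-767. Levels are given as CPM, the counts scaled to a common library total after TMM factors, which correct for differences in library composition. *Alb*, the albumin gene that marks hepatocytes, was between 37279 and 51571 CPM with vehicle and between 37769 and 79704 CPM with INT-767.

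Lipases hydrolyse the triglyceride and phospholipid of circulating lipoproteins and thereby turn large particles into smaller remnants. Receptors on liver cells take up those remnants whole or, in the case of high-density lipoprotein, take only the cholesteryl ester. Esterification and transfer proteins move cholesterol and phospholipid between particles, and a microsomal transfer protein loads lipid onto new particles inside the hepatocyte.

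Among the 11 libraries 4 stood apart by a technical measure, and values without them, an alternative chosen after seeing the data, are given beside those of all 11 mice. Across genes, the deviation of a library from the mean of all libraries correlated with transcript length at a Spearman rho between 0.11 and 0.30 in vehicle mice 2 to 6 and at 0.15 and 0.09 in INT-767-treated mice 1 and 3. In vehicle mice 1 and 7 it was -0.18 and -0.23, and in INT-767-treated mice 2 and 4 it was -0.29 and -0.31, so that counts of long transcripts were low in these libraries. The same correlation with GC content was between 0.02 and 0.44 in vehicle mice 2 to 6, -0.42 and -0.12 in vehicle mice 1 and 7, and -0.06, -0.26, -0.16 and -0.24 in INT-767-treated mice 1 to 4, so that it was negative in all 4 treated mice. Mitochondrial transcripts held between 3.35% and 5.74% of counts with vehicle and 5.59%, 6.87%, 4.43% and 6.63% in INT-767-treated mice 1 to 4, with mice 2 and 4 above all vehicle mice. These library measures thus moved in part with treatment, and their part in the differences below was not tested beyond an offset for GC content and length. The correlations are values across genes, which are not independent replicates.

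Promoter windows are shown for *Lipc* and *Vldlr*, genes that passed the test in opposite directions and for which RefSeq (assembly GRCm38.p6) gave the 250 bases before a transcript start. Capitals mark the letters AGGTCA, a half-site bound by several nuclear receptors, and the letters CCAAT, each on either strand, where the reverse strand reads TGACCT and ATTGG. *Lipc* had 2 annotated starts. The window of its upstream start lies at chr9:70952222-70952471 and that of its second start, in an intron of the same gene, at chr9:70934809-70935058, both on the minus strand. The window of the *Vldlr* start at the gene's 5′ end lies at chr19:27216234-27216483 on the plus strand.
Lipc upstream start: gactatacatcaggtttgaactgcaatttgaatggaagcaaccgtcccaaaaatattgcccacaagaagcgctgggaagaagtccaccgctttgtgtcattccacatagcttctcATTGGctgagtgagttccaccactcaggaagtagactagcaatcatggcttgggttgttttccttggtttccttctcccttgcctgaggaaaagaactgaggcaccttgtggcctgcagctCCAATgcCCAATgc
Lipc second start: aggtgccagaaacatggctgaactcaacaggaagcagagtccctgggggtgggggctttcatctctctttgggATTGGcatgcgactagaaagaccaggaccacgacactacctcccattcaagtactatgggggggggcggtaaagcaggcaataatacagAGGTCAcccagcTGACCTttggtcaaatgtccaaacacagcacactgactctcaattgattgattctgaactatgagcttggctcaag
Vldlr start: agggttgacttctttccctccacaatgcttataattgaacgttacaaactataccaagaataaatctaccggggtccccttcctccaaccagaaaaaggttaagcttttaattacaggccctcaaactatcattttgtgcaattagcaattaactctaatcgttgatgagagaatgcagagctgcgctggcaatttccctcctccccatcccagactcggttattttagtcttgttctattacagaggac

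The window of the second *Lipc* start held 2 half-sites, 88 and 76 bases before the start, which face each other as an inverted repeat with 6 bases between them (AGGTCANNNNNNTGACCT). A half-site was present in 14.02% of all 32851 windows of this length, and this arrangement, which was looked for after the sequence had been seen, in 2 of them. The windows of the upstream *Lipc* start and of *Vldlr* held no half-site. CCAAT was found in both *Lipc* windows, in the windows of *Lcat* and *Pltp* and in that of a second *Vldlr* start (not printed here), 78 bases before it, as in 33.8% of all windows. Neither the inverted repeat spaced by 1 base (AGGTCANTGACCT), the arrangement best known for FXR, nor the direct repeat spaced by 1 base (AGGTCANAGGTCA) was found in any of the 8 windows that the table gave for 6 of the 9 genes. In these exact letters they were found in only 2 and 11 of all 32851 windows. Their absence from 8 windows therefore says little about these genes. A match of letters is a description of the window, and counts per gene do not tell the 2 *Lipc* starts apart. The table used here had windows for *Lcat*, *Lipc*, *Lrp1*, *Mttp*, *Pltp* and *Vldlr*, and none for *Lpl*, *Angptl4* and *Scarb1*.

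Of the 9 genes, 2 were called higher and 1 lower with INT-767 at an adjusted *p* threshold of 0.05 by edgeR's quasi-likelihood test with Benjamini-Hochberg adjustment. Of all 13880 genes tested, 9.72% were called, 5.04% as higher and 4.68% as lower, while 32.9% had an unadjusted *p* under 0.05 by edgeR and DESeq2 called 20.3%. By edgeR 7 of the 9 genes had an unadjusted *p* under 0.05, and DESeq2 called 6 of the 9. The groups had no level in common in 4 of the 9 genes, against 7.51% of all genes tested. Their median log2 fold change was -0.09, beside -0.01 for all genes tested, with 4 positive and 5 negative values. The plot of levels by mouse shows each of these values.

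**Figure D1:**
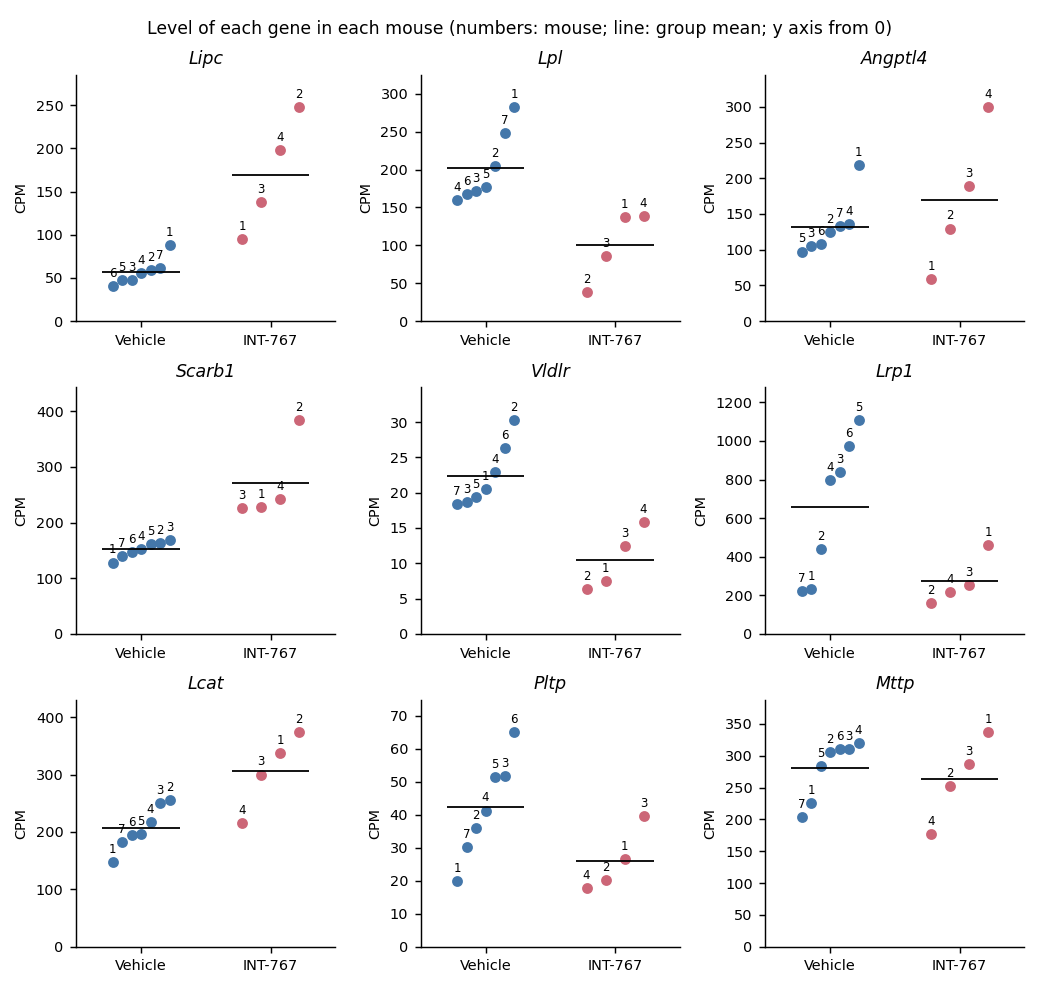
Level of each of the 9 genes (CPM, linear axis from 0) in each vehicle mouse (n = 7, blue) and each INT-767-treated mouse (n = 4, red), with the mouse's number above its point and the group mean as a line. *Lipc* and *Scarb1* were above, and *Lpl* and *Vldlr* below, the whole vehicle range in all 4 INT-767-treated mice.

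*Lipc* (ENSMUSG00000032207, chromosome 9, 70798128 to 70952226 of GRCm38, minus strand, 11 exon blocks) encodes hepatic lipase, which is made by hepatocytes and acts on remnants and high-density lipoprotein. The lowest, median and highest levels with vehicle were 40.9, 55.2 and 87.7 CPM. In INT-767-treated mice 1 to 4 the level was 94.5, 248, 137 and 198 CPM. All 4 treated mice were above all 7 vehicle mice, mouse 1 by a small margin over vehicle mouse 1, and mouse 2 was the highest. The log2 fold change was 1.58 (SE 0.25, 95% interval 1.03 to 2.13), with an adjusted *p* of 0.00471 by edgeR and an exact two-sided Mann-Whitney *p* of 0.00606, the smallest that 4 against 7 mice can give. *Lipc* was called with each of the 11 mice left out in turn, at log2 fold changes from 1.32 to 1.78, and without the 4 libraries that stood apart it was 1.22 (edgeR adjusted *p* = 0.0014). Its levels in the treated libraries of negative length trend, 248 and 198 CPM, were above those in the other treated pair, 94.5 and 137 CPM. With vehicle, the libraries of negative length trend, mice 1 and 7, were also the highest, at 87.7 and 61.0 CPM against 40.9 to 58.6 CPM in the others. Neither pattern was tested. Because whole liver was measured, more transcript per cell and a larger share of the cells that carry it cannot be told apart, here and for the other genes.

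Hepatocyte markers were above the vehicle range as a sum in INT-767-treated mice 1 to 3, while single markers went both ways. Their summed level over 9 genes ranged from 47543 to 63648 CPM with vehicle and was 96363, 92040, 74120 and 48841 CPM in INT-767-treated mice 1 to 4, with *Alb* the most abundant. Without *Alb* the sum ranged from 9597 to 12312 CPM with vehicle and was 16659, 14187, 13794 and 11073 CPM in these treated mice. Among the 9, only *Ass1*, the urea cycle enzyme argininosuccinate synthase, was called by edgeR (log2 fold change 1.31, adjusted *p* = 0.0045), beside 5.04% of all genes tested called higher. An unadjusted *p* under 0.05 was found for 5 (32.9% of all genes tested), and DESeq2 called 4 (20.3% of all genes tested). The median of the list was 0.57, and only *Ttr* and *Serpina1a* had negative values, -0.32 and -0.11. INT-767-treated mouse 4 had a hepatocyte sum within the vehicle range and a *Lipc* level of 198 CPM, the second highest. The part of cell composition in the *Lipc* difference was not tested.

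*Lpl* (ENSMUSG00000015568, chromosome 8, 68880491 to 68907448, plus strand, 13 exon blocks) encodes lipoprotein lipase, the enzyme that clears triglyceride from chylomicrons and very-low-density lipoprotein, and which muscle, adipose tissue and macrophages make. Vehicle mice had a lowest, median and highest level of 160.3, 177 and 283 CPM. Its levels in INT-767-treated mice 1 to 4 were 137, 37.7, 85.6 and 139 CPM. Every treated mouse was below every vehicle mouse, and mouse 2 was by far the lowest. The log2 fold change was -1.01 (SE 0.31, 95% interval -1.69 to -0.33) and missed the threshold, with an edgeR adjusted *p* of 0.0591, although the groups did not overlap (exact two-sided Mann-Whitney *p* = 0.00606). *Lpl* passed the threshold at -0.65 without the 4 libraries that stood apart (adjusted *p* = 0.0426), an alternative chosen after seeing the data, at -1.20 without INT-767-treated mouse 1 (edgeR adjusted *p* = 0.045) and at -1.01 by DESeq2 (adjusted *p* = 0.0132). Without INT-767-treated mouse 2 it was -0.76 and further from the threshold (edgeR adjusted *p* = 0.117). Of the 11 fits with each mouse left out in turn, 1 called it.

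Macrophage markers were also low in 3 of the 4 treated mice. The sum over 11 markers ranged from 769 to 1068 CPM with vehicle and was 554, 522, 495 and 1141 CPM in INT-767-treated mice 1 to 4, with *Lyz2*, the lysozyme gene of myeloid cells, the most abundant. *Cd68*, *Csf1r* and *Cd9* were called lower by edgeR, at log2 fold changes of -1.16, -1.14 and -0.76, beside 4.68% of all genes tested. An unadjusted *p* under 0.05 was found for 6 of the 11 and DESeq2 called 6, against 32.9% and 20.3% of all genes tested. The median of the list was -0.76, and only *Clec4f* had a positive value, 0.53, and was not called. INT-767-treated mouse 4 had the highest macrophage sum of all 11 mice, but without *Lyz2* its sum of 742 CPM lay inside the vehicle range of 565 to 785 CPM, while mice 1 to 3, at 323 to 397 CPM, stayed below it. In mouse 4 the *Lpl* level of 139 CPM, the highest of the treated mice, was below every vehicle mouse. Adipocyte markers came almost wholly from *Fabp4*, a lipid carrier that macrophages also express. Without it the other 5 adipocyte genes summed to at most 2.5 CPM with vehicle, to between 0 and 0.553 CPM in INT-767-treated mice 1 to 3 and to 11.7 CPM in mouse 4. *Adipoq* and *Lep* had no count in any vehicle mouse and reached 3.37 and 4.80 CPM in that treated mouse, and *Retn* had no count in any mouse. The part of macrophages or adipose tissue in the *Lpl* values was not tested.

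**Figure D2:**
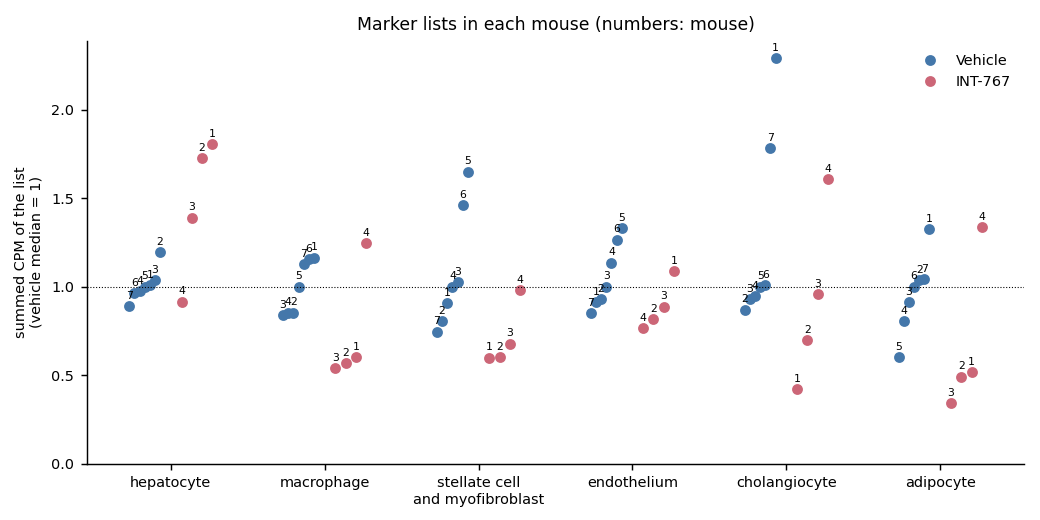
Summed CPM of each cell type marker list in each mouse, divided by the list's vehicle median (dotted line at 1), for vehicle mice (blue, n = 7) and INT-767-treated mice (red, n = 4), with the mouse's number above each point. Macrophage sums of INT-767-treated mice 1 to 3 sit below all vehicle mice and that of mouse 4 above them, and hepatocyte sums of mice 1 to 3 sit above all vehicle mice.

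*Angptl4* (ENSMUSG00000002289, chromosome 17, 33773750 to 33781830, minus strand, 7 exon blocks) encodes a secreted inhibitor of lipoprotein lipase that fasting and fatty acids induce. The vehicle group ranged from 97.4 to 218 CPM around a median of 125 CPM. INT-767-treated mice 1 to 4 had 58.5, 129.6, 189 and 300.4 CPM. The treated mice included both the lowest and the highest of all 11 mice, so the vehicle range lay inside theirs. With a log2 fold change of 0.36 it was not called (SE 0.35, 95% interval -0.40 to 1.12, edgeR adjusted *p* = 0.467, exact Mann-Whitney *p* = 0.648), and leaving out INT-767-treated mouse 4, the mouse with the highest sum of adipocyte genes, gave -0.07. Without the 4 libraries that stood apart the value was 0.12 (edgeR adjusted *p* = 0.856).

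The counts of a pair of genes in 1 library can be compared without any scaling of that library. The ratio of *Lipc* to *Lpl* counts was between 0.243 and 0.344 with vehicle and was 0.689, 6.58, 1.61 and 1.43 in INT-767-treated mice 1 to 4. In every vehicle liver *Lpl* counts exceeded *Lipc* counts, and in 3 of the 4 treated livers the order was the opposite. The ratio of *Angptl4* to *Lpl* was between 0.534 and 0.851 with vehicle and was 0.426, 3.44, 2.21 and 2.16 with INT-767, so that mouse 1 lay below and the other 3 mice above the vehicle range. These ratios are descriptions of the libraries and were given no test.

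Other genes that act on or with the lipases were counted next. Of 14 partners and regulators described here, 13 were matched by symbol and tested, and *Angptl8* was not matched. Of the 13, 2 were called, both as higher (5.04% of all genes tested were), 3 had an unadjusted *p* under 0.05, a smaller share than the 32.9% of all genes tested, and the median log2 fold change was 0.14. *Apoa5*, an apolipoprotein that enhances triglyceride clearance, rose by 1.37 on the log2 scale (SE 0.26, edgeR adjusted *p* = 0.0104). *Angptl6*, a secreted protein of the angiopoietin-like family, rose by 1.26 (SE 0.26, edgeR adjusted *p* = 0.0129). Annotated genes on the opposite strand cover 20.8% of the exon bases of *Apoa5* and 16.8% of those of *Angptl6*, and the strand setting of the counting is not given in the sources used here. *Apoc1* and *Apoc3*, apolipoproteins that inhibit lipases or remnant uptake, were the most abundant with *Apoa5* and were not called, at 0.34 and 0.58. *Apoc3* passed without INT-767-treated mouse 1 (0.74, edgeR adjusted *p* = 0.046) and was 0.33 without mouse 4, and *Apoc1* was 0.18 without INT-767-treated mouse 2. *Apoa5* and *Angptl6* were called with each mouse left out in turn. *Apoa5* without the 4 libraries that stood apart was 0.84 (edgeR adjusted *p* = 0.0225) and *Angptl6* 1.34 (0.0062), while *Apoc1* was 0.14 and *Apoc3* 0.10.

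*Scarb1* (ENSMUSG00000037936, chromosome 5, 125277087 to 125341094, minus strand, 16 exon blocks) encodes scavenger receptor class B type 1, which takes cholesteryl ester from high-density lipoprotein into the hepatocyte. Levels with vehicle ran from 128 to 169 CPM with a median of 153 CPM, the narrowest spread of the 9 genes (coefficient of variation 9.68%). The treated mice 1 to 4 had 228, 385, 227 and 243 CPM. All 4 treated mice were above all 7 vehicle mice, and mouse 2 stood well above the other 3. *Scarb1* rose by 0.83 on the log2 scale (SE 0.17, 95% interval 0.48 to 1.19, edgeR adjusted *p* = 0.0115, exact two-sided Mann-Whitney *p* = 0.00606). Without INT-767-treated mouse 2 the value was 0.60 with an edgeR adjusted *p* of 0.0522, and without the 4 libraries that stood apart, mouse 2 among them, it was 0.52 and passed (edgeR adjusted *p* = 0.0302).

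*Vldlr* (ENSMUSG00000024924, chromosome 19, 27216484 to 27254231, plus strand, 19 exon blocks) encodes the very-low-density lipoprotein receptor, which binds particles rich in apolipoprotein E and is scarce in healthy liver. Vehicle levels lay between 18.3 and 30.3 CPM, with a median of 20.5 CPM. Those of INT-767-treated mice 1 to 4 were 7.50, 6.36, 12.4 and 15.8 CPM. All 4 treated mice were below all 7 vehicle mice, with mouse 4 closest to them. *Vldlr* fell by 1.09 on the log2 scale (SE 0.25, 95% interval -1.64 to -0.53, edgeR adjusted *p* = 0.0238, exact two-sided Mann-Whitney *p* = 0.00606). The counts behind it were the fewest of the 9 genes, down to 46 in INT-767-treated mouse 2, and without that mouse the value was -0.93 with an edgeR adjusted *p* of 0.0843. Without the 4 libraries that stood apart it was -1.27 (edgeR adjusted *p* = 0.00981). With the offset for GC content and length it was -0.86 (edgeR adjusted *p* = 0.0432), and without vehicle mouse 6 it was -1.05 (0.0499).

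*Lrp1* (ENSMUSG00000040249, chromosome 10, 127538161 to 127621148, minus strand, 88 exon blocks) encodes a large endocytic receptor for remnants that hepatocytes, macrophages and stellate cells carry. Its lowest, median and highest vehicle levels were 219.8, 797 and 1111 CPM, and in INT-767-treated mice 1 to 4 the level was 462, 162, 255 and 218 CPM. The vehicle mice themselves spread 5.05-fold, and vehicle mice 1 and 7, at 233 and 219.8 CPM, lay among the treated mice. The log2 fold change of -1.26 (SE 0.48, 95% interval -2.30 to -0.23) was not called, with an edgeR adjusted *p* of 0.0984 and an exact Mann-Whitney *p* of 0.109.

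*Lrp1* has the longest transcript of the 9 genes, 14888 bases against a median of 3310 bases over the genes tested, of which 99.6% are shorter. Vehicle mice 1 and 7, the vehicle libraries with a negative length trend, were the lowest vehicle mice for *Lrp1*. With an offset in the fit for the GC content and length trends of every library, the log2 fold change of *Lrp1* was -0.48 (edgeR adjusted *p* = 0.189). Without the 4 libraries of negative length trend it was -1.20 and passed the threshold (edgeR adjusted *p* = 0.045), on 5 vehicle and 2 treated mice, and leaving out vehicle mouse 1 alone gave -1.41 (edgeR adjusted *p* = 0.0387). The part of transcript length in the *Lrp1* difference was not tested further.

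**Figure D3:**
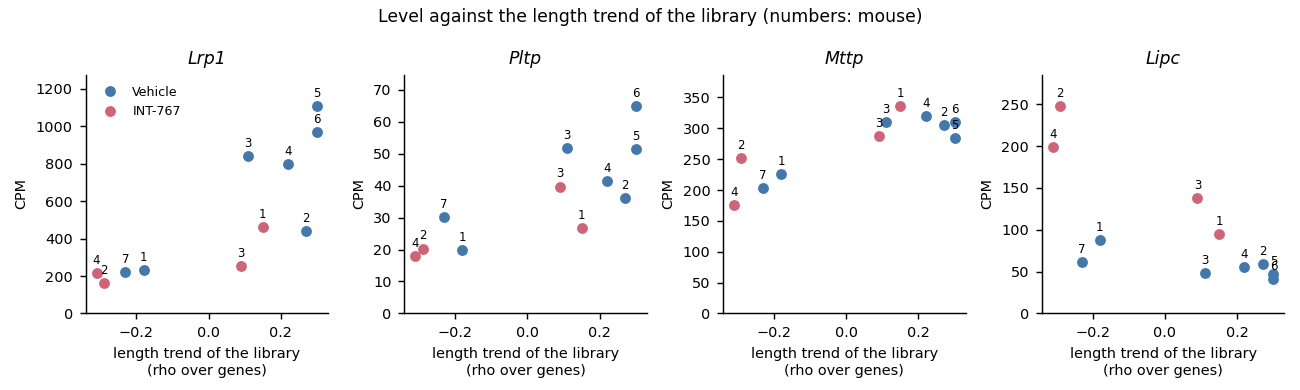
Level (CPM, axis from 0) of *Lrp1*, *Pltp*, *Mttp* and *Lipc* in each mouse against the length trend of its library, the Spearman rho over genes between the library's deviation and transcript length. Libraries with a negative trend had the lowest *Lrp1*, *Pltp* and *Mttp* levels of each group, while for *Lipc* the treated mice lay above vehicle mice of similar trend.

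The ratio of *Scarb1* to *Vldlr* counts was between 5.39 and 9.10 with vehicle and was 30.3, 60.6, 18.3 and 15.4 in INT-767-treated mice 1 to 4, with no overlap. The ratio of *Scarb1* to *Lrp1* overlapped, between 0.146 and 0.634 with vehicle and 0.49, 2.38, 0.887 and 1.11 with INT-767, where mouse 1 lay inside the vehicle range.

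Of 17 other receptors and adaptors described here, 15 were tested, and *Lrp2* and *Lrp8* had too few counts. Among the 15, 2 were called higher and 1 lower, beside 5.04% and 4.68% of all genes tested, with a median log2 fold change of -0.28. An unadjusted *p* under 0.05 was found for 7 by edgeR, and DESeq2 called 6, beside 32.9% and 20.3% of all genes tested. *Sort1*, a sorting receptor for apolipoprotein B, fell by 1.21 (SE 0.26, edgeR adjusted *p* = 0.017), from 36.7 ± 3.19 CPM (SD, n = 7) to 15.9 ± 8.19 CPM (SD, n = 4). *Lsr*, a remnant receptor, rose by 0.69 (SE 0.16, edgeR adjusted *p* = 0.0251), with 44.7% of its exon bases under genes of the opposite strand. *Sdc1*, a heparan sulfate proteoglycan that captures remnants, rose by 0.75 (SE 0.22, edgeR adjusted *p* = 0.0487). *Sort1* was called with each mouse left out. *Lsr* lost its call without vehicle mouse 4, 5 or 6 or INT-767-treated mouse 2 or 4, and *Sdc1* without any 1 mouse except vehicle mouse 1 or INT-767-treated mouse 3, at edgeR adjusted *p* of up to 0.114 and 0.148, both without INT-767-treated mouse 2. *Sdc1* also lost it with library size only, upper-quartile factors, either other filter and limma-voom (adjusted *p* from 0.0567 to 0.0962 by edgeR or limma), and *Lsr* with library size only (0.0783). The fatty acid transporter *Cd36* and the lysosomal receptor *Scarb2*, the most abundant beside *Sdc1*, had values of 0.40 and -0.07 and were not called. *Sort1* without the 4 libraries that stood apart was -0.83 (edgeR adjusted *p* = 0.0214), *Lsr* 0.68 (0.0174) and *Sdc1* 0.66 (0.0847, not called), and *Cd36* was 0.07.

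*Lcat* (ENSMUSG00000035237, chromosome 8, 105939551 to 105943382, minus strand, 6 exon blocks) encodes lecithin-cholesterol acyltransferase, a secreted enzyme that esterifies cholesterol on high-density lipoprotein. Levels with vehicle went from 148 to 255 CPM, with a median of 196 CPM. INT-767-treated mice 1 to 4 had levels of 338, 374, 300.2 and 215 CPM. Treated mice 1 to 3 were above all vehicle mice, and mouse 4 lay inside the vehicle range. A log2 fold change of 0.57 (SE 0.19, 95% interval 0.17 to 0.97) was not called (edgeR adjusted *p* = 0.067), with an exact two-sided Mann-Whitney *p* of 0.0424. It passed the threshold by DESeq2 (adjusted *p* = 0.0259) and without INT-767-treated mouse 4 (0.70, edgeR adjusted *p* = 0.0385), while with scaling by library size alone the exact *p* was 0.164. Without the 4 libraries that stood apart it was 0.52 (edgeR adjusted *p* = 0.0524).

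*Pltp* (ENSMUSG00000017754, chromosome 2, 164839518 to 164857711, minus strand, 15 exon blocks) encodes phospholipid transfer protein, which moves phospholipid between circulating particles. Between 19.9 and 65.0 CPM were found with vehicle, with a median of 41.3 CPM. For INT-767-treated mice 1 to 4 the levels were 26.7, 20.3, 39.7 and 17.8 CPM. Treated mice 1 to 3 lay inside the vehicle range and mouse 4 just below it, and the lowest vehicle level was that of mouse 1. It was not called at -0.70 on the log2 scale (SE 0.31, 95% interval -1.37 to -0.02, edgeR adjusted *p* = 0.141, exact Mann-Whitney *p* = 0.109), and without vehicle mouse 1 it was -0.82 and passed the threshold (edgeR adjusted *p* = 0.0443). Without the 4 libraries that stood apart it was -0.57 (edgeR adjusted *p* = 0.117). *Ctsa*, on the opposite strand, covers 19.3% of the exon bases of *Pltp*.

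*Mttp* (ENSMUSG00000028158, chromosome 3, 138089854 to 138144968, minus strand, 22 exon blocks) encodes the large subunit of the microsomal triglyceride transfer protein, which loads lipid onto apolipoprotein B. The vehicle mice had between 203 and 321 CPM, with a median of 305 CPM, and INT-767-treated mice 1 to 4 had 337, 252, 287 and 176 CPM. The groups overlapped, and the lowest mice of each group were the libraries of negative length trend. *Mttp* was not called, with a log2 fold change of -0.09 (SE 0.19, edgeR adjusted *p* = 0.755, exact Mann-Whitney *p* = 0.788). Its 95% interval of -0.51 to 0.33 leaves room for a modest change in either direction, and without the 4 libraries that stood apart the value was 0.035. *Gm43691* and *Trmt10a*, on the opposite strand, cover 9.49% of its exon bases.

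The ratio of *Lcat* to *Pltp* counts was between 3.00 and 7.45 with vehicle and was 12.7, 18.4, 7.56 and 12.1 in INT-767-treated mice 1 to 4. The groups did not overlap, although mouse 3 was just above the highest vehicle mouse, and neither gene passed the test on its own.

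**Figure D4:**
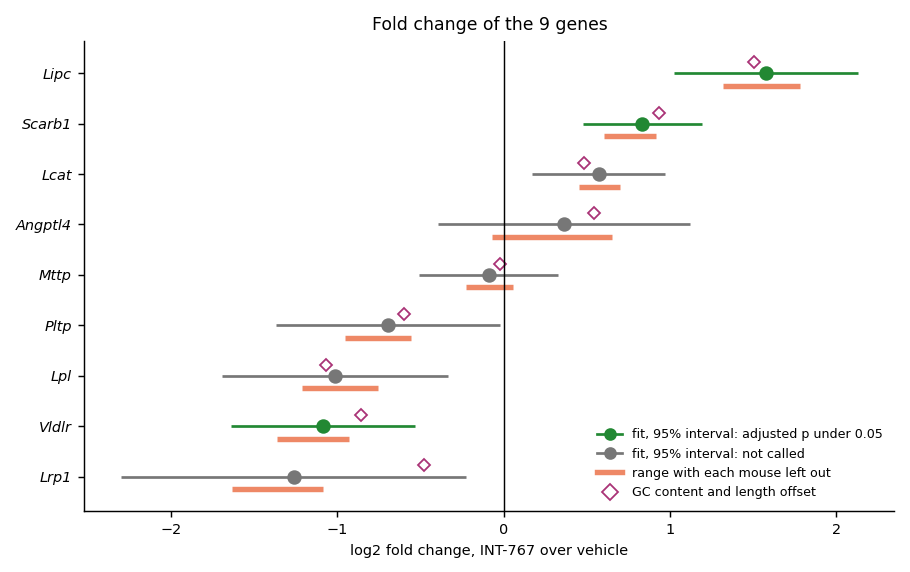
Log2 fold change (INT-767 over vehicle) of each of the 9 genes from edgeR on 7 vehicle and 4 treated mice, with its 95% interval, in green where the adjusted *p* was under 0.05, the range when each mouse was left out in turn (orange bar) and the value with the GC content and length offset (open diamond). *Lipc* at 1.58 has the highest value and *Lrp1* at -1.26 the lowest, with the widest interval, and only *Angptl4* and *Mttp* change sign when 1 mouse is left out.

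All 19 listed genes of particle assembly, transfer and esterification were tested, of which 3 were called higher and 1 lower, beside 5.04% and 4.68% of all genes tested, with a median log2 fold change of 0.31. By edgeR 9 had an unadjusted *p* under 0.05, and DESeq2 called 8, beside 32.9% and 20.3% of all genes tested. The cholesterol esterifying enzymes inside the cell went in opposite directions. *Soat2*, the form of hepatocytes, rose by 0.91 (SE 0.15, edgeR adjusted *p* = 0.0047), from 61.7 ± 8.13 CPM (SD, n = 7) to 116 ± 19.6 CPM (SD, n = 4). *Soat1*, the form abundant in macrophages, fell by 0.82 (SE 0.20, edgeR adjusted *p* = 0.0251), from 22.1 ± 2.30 CPM to 12.4 ± 3.85 CPM. *Aadac*, a lipid hydrolase of the endoplasmic reticulum, rose by 1.38 (SE 0.37, edgeR adjusted *p* = 0.0367), and *Tm6sf2*, which helps to lipidate particles, by 0.73 (SE 0.19, edgeR adjusted *p* = 0.0357). Only *Soat2* of these 4 was called with each mouse left out. *Soat1* lost its call without vehicle mouse 5 or 6 or INT-767-treated mouse 2, *Aadac* without any of vehicle mice 2 to 6 or INT-767-treated mouse 2 or 4, and *Tm6sf2* without any of vehicle mice 2 to 6 or INT-767-treated mouse 1 or 2, at edgeR adjusted *p* of up to 0.132. *Aadac* also lost it with library size only (edgeR adjusted *p* = 0.0512), and with the GC content and length offset its log2 fold change was 0.85 and still called (0.0081). *Tm6sf2* also lost it, beside the replicate block and the threshold of 0.01, under 6 settings with all mice kept, 4 of scaling or filter, the GC content and length offset and limma-voom, at adjusted *p* from 0.0508 to 0.124 by edgeR or limma. The apolipoprotein genes *Apoe*, *Apob* and *Apoa1*, the most abundant of the list, had values of 0.06, 0.87 and 0.52 and were not called. *Apob* passed without vehicle mouse 1 (1.05, edgeR adjusted *p* = 0.0382) and was 0.55 without INT-767-treated mouse 4. *Soat2* without the 4 libraries that stood apart was 0.81, *Soat1* -0.59, *Aadac* 1.08 and *Tm6sf2* 0.95, all called (edgeR adjusted *p* from 0.0036 to 0.0393), and *Apoe*, *Apob* and *Apoa1* were -0.14, 0.52 and 0.40.

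**Figure D5:**
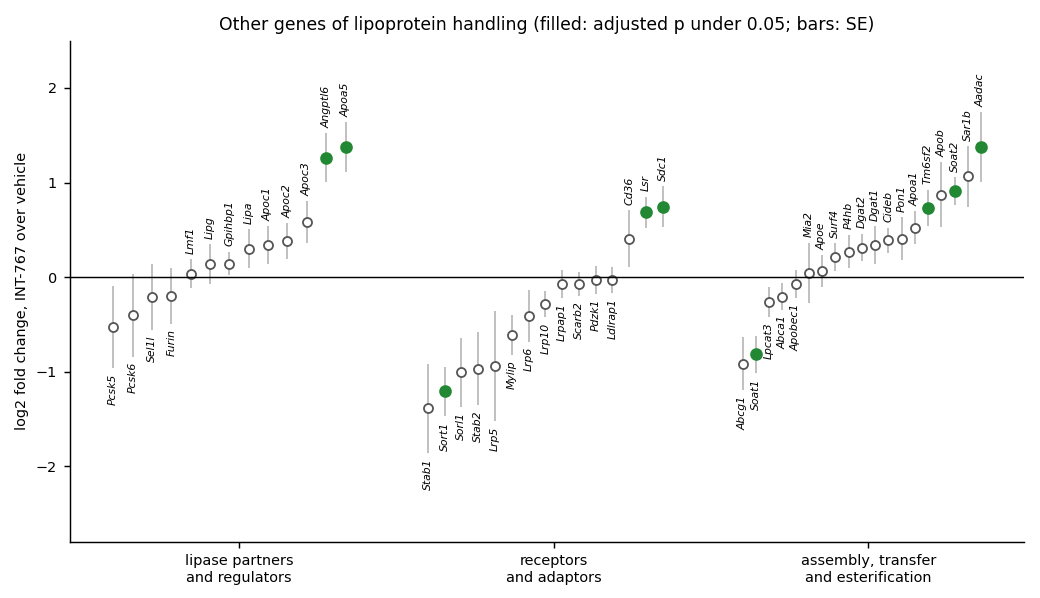
Log2 fold change (INT-767 over vehicle) with its SE for each tested gene of the 3 lists, 13 partners and regulators of lipases, 15 receptors and adaptors, and 19 genes of assembly, transfer and esterification, sorted by value within each list. Filled points passed the edgeR threshold, and they include *Apoa5* at 1.37 and *Sort1* at -1.21.

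Other marker lists were read beside these genes. Of all genes tested, edgeR called 9.72% (4.68% as lower), 32.9% had an unadjusted *p* under 0.05 and DESeq2 called 20.3%. Of 10 stellate cell and myofibroblast markers, 3 were called, all lower (*Pdgfrb*, *Col1a1* and *Col1a2*), 5 had an unadjusted *p* under 0.05 and DESeq2 called 4, with a median of -0.66 and sums from 904 to 1999 CPM with vehicle and from 726 to 1189 CPM with INT-767, *Dcn* being the most abundant. Without *Dcn* the sums did not overlap, from 432 to 1497 CPM with vehicle and from 173 to 393 CPM with INT-767. None of 8 endothelial markers was called by edgeR or DESeq2, and 1 had an unadjusted *p* under 0.05, with sums from 185 to 289.6 CPM and from 167 to 237 CPM, led by *Ptprb*. None of 6 cholangiocyte markers was called by edgeR, 4 had an unadjusted *p* under 0.05 and DESeq2 called 3, with sums from 735 to 1937 CPM and from 356 to 1359.6 CPM, nearly all of it *Spp1*. All 6 had negative values, with a median of -0.62. Without *Spp1* the sums overlapped, from 51.4 to 91.7 CPM with vehicle and from 31.4 to 61.2 CPM with INT-767. Neither tested adipocyte marker was called or had an unadjusted *p* under 0.05.

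Levels of different genes were compared as RPKM, which divides the CPM of a gene by its exon length in kilobases. With vehicle, *Lcat* was the highest at 154 ± 28.4 RPKM (SD, n = 7), above all other 8 genes in every mouse, and *Vldlr* the lowest at 2.22 ± 0.45 RPKM. Between them came *Mttp* at 45.1 ± 7.48, *Angptl4* at 37.3 ± 11.5, *Lrp1* at 37.2 ± 20.3, *Lipc* at 26.5 ± 7.13, *Lpl* at 19.3 ± 4.48, *Scarb1* at 17.9 ± 1.73 and *Pltp* at 16.5 ± 5.89 RPKM. The ranges of each pair of neighbours among these 7 overlapped between mice. Within a mouse, however, *Lipc* was above *Lpl* in all 7 vehicle mice, while in each other pair of neighbours among the 7 the order changed from mouse to mouse, and *Vldlr* was below every other gene in every mouse. With INT-767, *Lipc* took the second place at 78.9 ± 31.4 RPKM (SD, n = 4), behind *Lcat* at 229 ± 50.6 RPKM, although *Mttp* was above it in mouse 1 (54.3 against 43.9 RPKM). *Lpl* at 9.53 ± 4.61 RPKM and *Pltp* at 10.2 ± 3.82 RPKM overlapped, with *Lpl* above *Pltp* in treated mice 1 and 4 and below it in mice 2 and 3, and *Vldlr* was the lowest at 1.04 ± 0.44 RPKM. The order depends on the length used. With the longest transcript in place of all exon bases *Lpl* and *Scarb1* came next after *Mttp* with vehicle, both ahead of *Lipc*, and with INT-767 *Lpl* at 24.3 RPKM was above *Lrp1* at 18.4 and *Pltp* at 11.7 RPKM. At that length *Lipc* at 88.4 RPKM and *Scarb1* at 87.5 RPKM were nearly level with INT-767, behind *Lcat*.

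Genes whose level varied most like each of the 9 across the 11 mice were ranked by Pearson's r of log2 CPM after the group means had been subtracted, among 12457 genes and with no test. They share the libraries, so depth and composition of a library act on both genes of a pair. For *Lipc* they were *Gstz1* and *Glyat*, both at 0.97, enzymes of tyrosine breakdown and of glycine conjugation. For *Lpl* they were *Mmp12*, the macrophage elastase, at 0.98 and *Jazf1* at 0.92. For *Angptl4* they were *Nceh1*, a cholesteryl ester hydrolase, at 0.98 and *Ahr*, the aryl hydrocarbon receptor, at 0.97. For *Scarb1* they were *Cyp2d9* at 0.91 and *Slc37a4* at 0.89, and for *Vldlr* they were *Pdzk1*, the adaptor of the *Scarb1* product, at 0.87 and *Gria3* at 0.86. For *Lcat* they were *Yipf3* and *Tmbim6*, both at 0.97, for *Pltp* they were *Rbak* and *Coro1c*, both at 0.96, and for *Mttp* they were *4931406C07Rik* and *Cwc27*, both at 0.99. For *Lrp1* they were *Kmt2d*, with a longest transcript of 19823 bases, and *Crocc*, with one of 6582 bases, both at 0.99 and both longer than the median tested gene. Both genes named for *Pltp* and for *Angptl4* were also longer than that median. Those for *Lipc*, *Lcat* and *Scarb1* were shorter, and those for *Lpl*, *Mttp* and *Vldlr* lay on either side of it.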

How the data were processed

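The authors prepared stranded poly-A mRNA libraries (TruSeq on NeoPrep), sequenced them on a NextSeq 500 for 75 cycles and aligned them with STAR to GRCm38 with Ensembl annotation. The submitters' processing notes give STAR 2.4.0, and the study's methods give another version. The authors deposited read counts per gene without normalization, as whole numbers for 46603 genes in 11 mice. How reads were counted, and whether by strand, is not given in the sources used here. All 11 libraries were distinct.

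Counts were tested in R 4.3.3 with edgeR 4.0.16 (TMM factors, filterByExpr with at least 10 counts and a total of at least 15, glmQLFit with robust set, glmQLFTest, treatment only) over 13880 genes, with Benjamini-Hochberg adjustment over all of them and a call threshold of 0.05. Each SE is the fold change divided by the root of F. CPM were also compared by an exact Mann-Whitney test, two-sided, over all 330 assignments of 4 of the 11 mice. Over all tested genes its smallest adjusted *p* was 0.0807, and 3263 genes had an unadjusted *p* under 0.05. The mice were not said to come from separate litters or batches, so *p*-values measure the spread between these samples. Total counts per mouse bound the precision, and counting error alone understates the true error, because reads that carry no molecular identifier can be copies.

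The 9 genes and all lists were chosen with earlier results of these data known. Named were all 9 genes, every called gene and the 3 most abundant genes of each pathway list, the most abundant marker of each list and the 2 genes that varied most like each of the 9. Other genes named were chosen after their values were seen. Some genes of the pathway lists are not reported here, and counts and medians of those lists leave them out. Gene models came from GENCODE M21 (GRCm38), and promoter windows from RefSeq. Alternatives were RLE factors, library size only, upper-quartile factors, 2 other count filters, a replicate block, a GC content and length offset (lowess with a span of 0.3, 13835 genes), both together, each mouse left out, DESeq2 1.42.0, limma-voom (limma 3.58.1) and a threshold of 0.01. One, without the 4 libraries of negative length trend, was chosen after seeing the data. The tools were tested on simulated data. Plots were made in Python 3.11.15 with matplotlib 3.10.9.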

Additional observations from a re-analysis of the deposited data

Results flagged for a closer look

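Of 30 groups of values looked at, 4 had a highest mouse set apart from the rest of its group by more than the 95% limit of Dixon's test, which chance passes in about 1 group in 20. *Lipc* in vehicle mouse 1 was 87.7 CPM, with the next vehicle mouse at 61.0 CPM. *Angptl4* in the same mouse was 218 CPM, with the next vehicle mouse at 136 CPM. *Scarb1* in INT-767-treated mouse 2 was 385 CPM, with the next treated mouse at 243 CPM, and without that mouse *Scarb1* missed the threshold (edgeR adjusted *p* = 0.0522). The summed macrophage markers in INT-767-treated mouse 4 were 1141 CPM, with the next treated mouse at 554 CPM, and the same mouse had the highest *Angptl4* level of all, 300.4 CPM.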

How the results depend on the processing

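*Lipc*, *Scarb1* and *Vldlr* kept their direction under each alternative run, and their call except with the block, at the stricter threshold (*Lipc* kept it there) and without INT-767-treated mouse 2 (*Lipc* kept it there too). Genes called higher and lower numbered 700 and 649, and 331 and 1026 with library size only (24.4% higher, against 51.9%), 467 and 812 with upper-quartile factors (36.5% higher), 1067 higher with the offset, 1443 and 1368 with DESeq2, and 158 and 87 at a threshold of 0.01. Median log2 fold changes over all genes were -0.22 with library size only and -0.09 with upper-quartile factors. The cause of these differences was not tested.

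The replicate numbers are not said to mark a shared litter, batch or day. Deviations of the 4 same-numbered pairs correlated between -0.69 and 0.22, and those of the other pairs between -0.63 and 0.70. These correlations cannot tell whether the numbers pair the mice. With the number as a block, 0 genes were called, alone or with the offset, with 1347 and 1682 at an unadjusted *p* under 0.05 (edgeR), so every list count was 0. *Lipc* was then 1.41 and with the offset 1.35 (edgeR adjusted *p* = 0.356 and 0.227), *Scarb1* 0.79 and 0.86 (0.393 and 0.247), and *Vldlr* -1.19 and -1.02 (0.393 and 0.316). At a threshold of 0.01, *Scarb1* (0.83) and *Vldlr* (-1.09) were not called.

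*Lpl* passed with library size only (-1.20, edgeR adjusted *p* = 0.0377), upper-quartile factors (-1.10, 0.0474), the offset (-1.07, 0.0315), without the 4 libraries (-0.65, 0.0426), with DESeq2 (-1.01, 0.0132) and limma-voom (-1.16, 0.0415). It missed the threshold with RLE factors (edgeR adjusted *p* = 0.058), either other filter (0.0686 and 0.0505) and the block (0.435, with the offset 0.274). DESeq2 also called *Lcat* (0.58) and *Lrp1* (-1.26), and *Lrp1* passed without the 4 libraries (-1.20). *Mttp* was 0.035 without them and 0.055 without INT-767-treated mouse 4, which also turned *Angptl4* to -0.072. The exact *p* of *Lcat* with library size only was 0.164.

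Partners of lipases called higher were 2, and 0 at a threshold of 0.01. Receptors called higher were 2, and 1 with upper-quartile factors, either other filter, limma-voom or without the 4 libraries, and 0 with library size only or at 0.01. Receptors called lower were 1, and 2 without the 4 libraries, 4 with DESeq2 and 0 at 0.01. Assembly genes called higher were 3, and 2 with upper-quartile factors, either other filter, the offset or limma-voom (*Tm6sf2* lost its call in each), 1 with library size only or at 0.01 and 6 with DESeq2. Those called lower were 1, and 2 with library size only, the offset, DESeq2 or without the 4 libraries, and 0 at 0.01. Genes not called that changed sign were *Apoc1* (-0.047 with block and offset), *Cd36* (-0.066 with the offset, -0.11 with both), *Scarb2* (0.074 and 0.032) and *Apoe* (-0.15 with library size only, -0.016 with upper-quartile factors, -0.0088 with the strict filter, -0.050 with the block, -0.0070 with the offset, -0.11 with both, -0.038 to 0.15 with each mouse left out, negative without INT-767-treated mouse 2 and -0.14 without the 4 libraries).

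With each mouse left out, genes called higher ranged from 164 (without INT-767-treated mouse 2) to 1906 (without vehicle mouse 1) and lower from 110 to 1370 (the same mice). Called partners of lipases ranged from 2 to 3 higher, called receptors from 0 to 2 higher and 1 to 5 lower, and assembly genes from 1 to 5 higher and 0 to 2 lower. Log2 fold changes ranged from 1.32 to 1.78 for *Lipc*, -1.21 to -0.76 for *Lpl*, 0.45 to 0.70 for *Lcat*, -0.96 to -0.56 for *Pltp*, -0.23 to 0.06 for *Mttp*, 0.60 to 0.92 for *Scarb1*, -1.37 to -0.93 for *Vldlr*, -1.63 to -1.09 for *Lrp1* and -0.07 to 0.65 for *Angptl4*. Exact *p* ranged from 0.0167 to 0.117 for *Lcat* and from 0.0381 to 0.267 for *Pltp*. Without INT-767-treated mouse 2 only *Lipc* of the 9 was called. *Lpl* passed only without INT-767-treated mouse 1 (edgeR adjusted *p* = 0.045), and *Lrp1* passed without vehicle mouse 1 (0.0387), as did *Pltp* (0.0443). Depth limits *Vldlr* most, with 46 to 414 counts.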
